A study of Mus musculus with 12 samples.

Results

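The genes described here were 9 members of the mitochondrial apoptosis machinery: the guardians Bcl2, Bcl2l1 and Mcl1, the effector Bak1, the BH3-only genes Bcl2l11, Bid, Bik and Bmf, and the apoptosome gene Apaf1. They were taken by NCBI Gene number from a table of 27179 genes, and all 9 were among the 14972 genes that were tested. The data were 12 RNA sequencing libraries from whole kidneys of mice 8 to 12 weeks old on a background that the labels call Mixed, with 3 libraries in each of 4 groups. FAN1KO mice ({Gamma}GT1-Cre;Fan1-/-) lack Fan1, a nuclease of DNA crosslink repair, where the Ggt1-Cre transgene is active, which is the proximal tubule, so the other cells of the kidney keep the gene. Wild-type and FAN1KO mice received either saline or cisplatin, a drug that crosslinks DNA, at 2 mg/kg by weekly intraperitoneal injection for 5 weeks.

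BCL2 family proteins decide whether the outer mitochondrial membrane stays closed or opens. Guardians (BCL2, BCL-XL from Bcl2l1, and MCL1) hold the effectors BAK and BAX in check, and BH3-only proteins (BIM from Bcl2l11, BID, BIK and BMF) bind the guardians or switch the effectors on. An open membrane releases cytochrome c, which assembles APAF1 into the apoptosome that activates caspase-9. In kidney tubule cells this route is a known path to death after cisplatin. Bax, Bbc3 (PUMA) and Pmaip1 (NOXA) are direct targets of p53 and stand apart from these 9 genes, although Apaf1 and Bid have also been described as p53-responsive elsewhere.

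Sequences upstream of the starts of 3 of these genes are shown because Bak1 had one of the largest differences described below, and Bcl2l11 and Bmf were the members whose windows matched a motif searched for. RefSeq (GRCm38.p6) gave 13 windows for 8 of the 9 genes, and Bik had none. Each sequence is the 250 bases before an annotated start, 5′ to 3′ on the strand of the gene, with a match in capitals.
Bak1, chr17:27028628-27028877, minus strand: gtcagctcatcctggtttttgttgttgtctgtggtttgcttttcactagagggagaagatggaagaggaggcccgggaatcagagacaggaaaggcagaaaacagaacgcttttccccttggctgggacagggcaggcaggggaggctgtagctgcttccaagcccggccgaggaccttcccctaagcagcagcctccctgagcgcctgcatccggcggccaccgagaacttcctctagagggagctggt
Bcl2l11, chr2:128125788-128126037, plus strand, 1 of 2 annotated starts: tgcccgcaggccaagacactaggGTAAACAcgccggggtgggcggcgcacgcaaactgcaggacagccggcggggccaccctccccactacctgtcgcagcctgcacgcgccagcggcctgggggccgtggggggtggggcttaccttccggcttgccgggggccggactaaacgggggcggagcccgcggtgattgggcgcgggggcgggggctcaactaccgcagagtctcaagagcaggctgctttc
Bmf, chr2:118544588-118544837, minus strand, 1 of 3 annotated starts: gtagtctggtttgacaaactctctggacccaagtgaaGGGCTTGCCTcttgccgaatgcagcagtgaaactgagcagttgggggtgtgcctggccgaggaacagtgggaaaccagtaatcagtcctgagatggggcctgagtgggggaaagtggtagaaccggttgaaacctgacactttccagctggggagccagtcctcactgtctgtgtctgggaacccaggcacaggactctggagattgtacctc
The capitals in Bcl2l11 are a FOXO motif (GTAAACA or ATAAACA on either strand), whose first base lies 227 bases before the start. The capitals in Bmf are a p53 decamer, 1 copy of the unit that p53 response elements repeat, searched on both strands, whose first base lies 213 bases before that start. Each motif matched 1 of the 13 windows, against 7.1% (FOXO) and 7.13% (p53 decamer) of all 32851 windows of the same length. A window without a match says only that these letters are not in it.

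The values are TPM, which scale reads by gene length and by the library total. Each is a share of its library, so comparisons between libraries depend on how the libraries are scaled, as described below. The recovered depth was 37201997 to 82947275 reads a library, and the reads behind a member's value ranged from 34 (Bik in 1 library of the wild-type cisplatin group) to 11802 (Bcl2l1). Y-linked RNA was present in 1 library of each group (library 3 of the wild-type saline and of the FAN1KO cisplatin group, library 1 of the remaining groups), with a mean of Ddx3y, Eif2s3y, Kdm5d and Uty between 3.46 and 3.93 on the log2(TPM + 1) scale against at most 0.10 in the other 8 libraries. This library was the lowest of its group in all 4 groups for 6 members (Bcl2, Mcl1, Bak1, Bcl2l11, Bmf and Apaf1), as it was for 41.5% of all genes tested, so values without these libraries are given beside the results they touch. Fan1 itself did not separate the genotypes: after saline its lowest and highest libraries were 1.98 and 3.80 TPM in wild-type and 1.17 and 2.28 TPM in FAN1KO kidneys, and after cisplatin 2.33 and 3.57 TPM and 1.55 and 3.51 TPM. In whole-kidney RNA, fewer cells of a type and less RNA per cell cannot be told apart.

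By mean TPM, Bcl2l1 was the most abundant of the 9 genes in every group and Apaf1 the least. In wild-type saline kidneys the mean was 98.7 ± 7.28 TPM for Bcl2l1, 60.9 ± 8.49 for Bid, 40.9 ± 7.97 for Mcl1 and 14.9 ± 2.43 for Bak1 (SD, n = 3), and the libraries of these 4 genes did not overlap with those of their neighbours in the order. Bcl2 (4.09 ± 1.43), Bcl2l11 (3.87 ± 1.42), Bik (3.36 ± 1.03) and Bmf (3.23 ± 1.02) followed at levels that did not differ beyond their spread, and Apaf1 stood at 0.949 ± 0.266. The order differed in FAN1KO cisplatin kidneys. There Bcl2l1 (180 ± 19.8 TPM) was followed by Mcl1 (68.0 ± 14.9), Bak1 (52.9 ± 9.23) and Bid (46.7 ± 5.60), each of which overlapped with the next. Bik (32.7 ± 1.65) stood below these and apart from Bcl2l11 (8.15 ± 1.77), Bmf (7.86 ± 2.99), Bcl2 (5.74 ± 1.02) and Apaf1 (3.97 ± 1.60), which again overlapped with their neighbours.

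**Figure D1:**
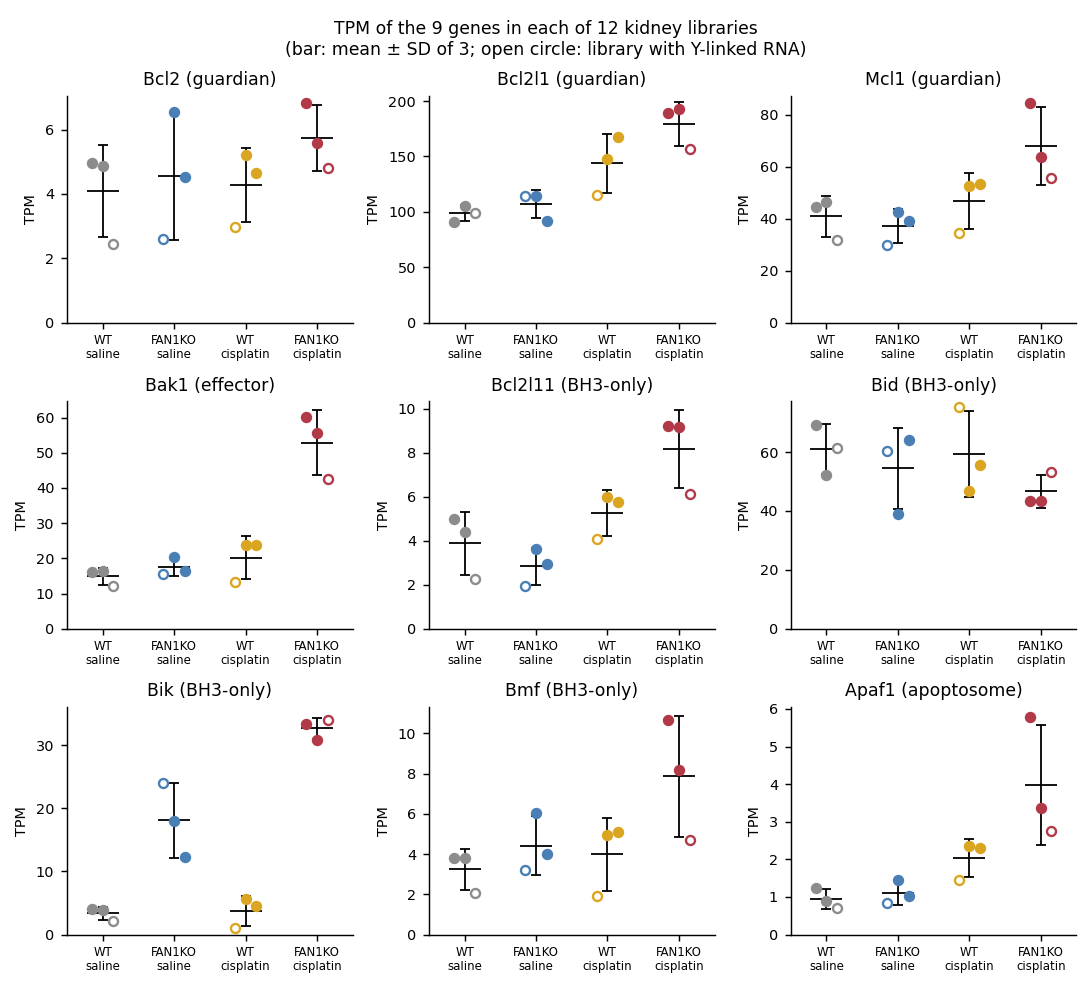
TPM (y axis, from 0) of each of the 9 genes in 3 libraries of wild-type (WT) and FAN1KO kidneys after saline or cisplatin (x axis), with the mean ± SD of 3 as bars and the libraries with Y-linked RNA as open circles. Bik stands apart by genotype in both treatments (12.2 to 33.9 against 1.07 to 5.67 TPM), Bak1 is highest in the 3 FAN1KO cisplatin libraries (42.5 to 60.3 TPM), and Bid has overlapping groups.

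FAN1KO and wild-type kidneys were first compared under the same cisplatin schedule. A difference here includes any that was also present after saline, and the difference in response to the drug is tested further below. Bik, a BH3-only gene, and Bak1, an effector, rose, and none of the 9 genes fell. limma with Benjamini-Hochberg adjustment over all genes tested called these 2 of 9 higher, against 19.6% of all genes tested. That comparator rested on single libraries: 2931 of 14972 genes were called higher, and 990 of 14674 without FAN1KO cisplatin library 1, 1363 of 14718 without FAN1KO cisplatin library 2 and 1445 of 14936 without wild-type cisplatin library 1, with 2 members called each time. The 3 FAN1KO libraries lay above the 3 wild-type libraries for 5 of 9 genes (Mcl1, Bak1, Bcl2l11, Bik and Apaf1), against 35.7% of all genes, and 6 of 9 had an unadjusted limma p under 0.05, against 38% of all genes. The median log2 fold change of the 9 genes was 0.54, and that of all genes tested 0.24.

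The genome-wide median itself depended on scaling. When each library was divided by its median ratio to the geometric mean library, the median of all genes went from 0.24 to -0.02, and the calls over all genes from 2931 higher and 654 lower to 1300 higher and 1154 lower. The same scaling gave log2 fold changes of 2.71 for Bik, 1.08 for Bak1, 0.59 for Bmf, 0.45 for Apaf1, 0.27 for Bcl2l11, 0.23 for Mcl1, 0.12 for Bcl2, 0.03 for Bcl2l1 and -0.62 for Bid, and again called Bik and Bak1.

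Among the guardians, Bcl2l1 (NCBI Gene 12048) encodes the long isoform BCL-XL and the shorter, death-promoting BCL-XS, which a gene-level TPM does not separate. It was at 91.2, 106 and 99.4 TPM in wild-type saline, 114, 115 and 92.2 in FAN1KO saline, 115, 148 and 168 in wild-type cisplatin and 189, 193 and 157 in FAN1KO cisplatin libraries. The 6 cisplatin libraries were the 6 highest, and the genotypes overlapped within each treatment. The log2 fold change between the genotypes under cisplatin was 0.33 ± 0.15 (SE), with a limma adjusted p of 0.131.

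Mcl1 (17210), a guardian with a short-lived protein, was at 44.6, 46.3 and 31.7 TPM in wild-type saline, 29.8, 42.7 and 39.0 in FAN1KO saline, 34.5, 52.7 and 53.3 in wild-type cisplatin and 84.6, 63.8 and 55.6 in FAN1KO cisplatin libraries. All 3 FAN1KO cisplatin libraries were above the other 9, the lowest of them by a small margin. Mcl1 was 1.45-fold the wild-type mean under cisplatin (log2 0.53 ± 0.23 SE), which did not pass the adjusted threshold (limma adjusted p = 0.110, exact permutation p = 0.1, the smallest that 3 against 3 libraries can give).

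Bcl2 (12043), the founding guardian, was at 4.97, 4.87 and 2.44 TPM in wild-type saline, 2.59, 6.56 and 4.52 in FAN1KO saline, 2.98, 5.20 and 4.64 in wild-type cisplatin and 6.84, 5.57 and 4.82 in FAN1KO cisplatin libraries. The 4 groups overlapped. Its log2 fold change between genotypes under cisplatin was 0.37 ± 0.31 (SE), with a limma adjusted p of 0.406.

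Bak1 (12018, chr17:27019812-27028627 in GRCm38.p6) encodes BAK, which resides on the outer mitochondrial membrane and forms the pore. It was at 16.0, 16.5 and 12.1 TPM in wild-type saline, 15.6, 20.4 and 16.4 in FAN1KO saline, 13.2, 23.7 and 23.7 in wild-type cisplatin and 60.3, 55.8 and 42.5 in FAN1KO cisplatin libraries. The lowest FAN1KO cisplatin library was above the highest of the other 9, and the other groups overlapped. Bak1 was 2.62-fold higher in FAN1KO than in wild-type kidneys under cisplatin (log2 1.38 ± 0.23 SE, limma adjusted p = 0.0031, exact permutation p = 0.1). Leaving out each library in turn gave log2 fold changes of 1.11 to 1.52 and adjusted p of 0.0039 to 0.0202. Its annotated span overlaps Ggnbp1, and without strand information reads in a shared stretch cannot be told apart. The same limit holds for Bcl2l1 (Cox4i2 and Gm32211), Bcl2l11 (Acoxl), Apaf1 (Ikbip and Gm25390), Bcl2 (Mir3473f and Gm37053) and Bid (Gm17812).

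Bik (12124, chr15:83526790-83544635 in GRCm38.p6), a BH3-only gene whose protein sits mainly at the endoplasmic reticulum, was at 4.08, 3.81 and 2.18 TPM in wild-type saline and 1.07, 5.67 and 4.57 in wild-type cisplatin libraries. In FAN1KO libraries it was at 24.0, 17.9 and 12.2 TPM after saline and 33.3, 30.8 and 33.9 after cisplatin. The 6 FAN1KO libraries were all above the 6 wild-type libraries, in both treatments. Under cisplatin the mean was 8.67-fold higher in FAN1KO kidneys (log2 2.99 ± 0.40 SE, limma adjusted p = 0.0011, exact permutation p = 0.1), the largest log2 difference among the 9 genes, and 2.47 to 3.31 when each library was left out in turn. The library with Y-linked RNA was the highest in both FAN1KO groups and the lowest in both wild-type groups. Without these libraries the log2 difference under cisplatin was smaller, 2.44. Its span overlaps the pseudogene Gm46495, so reads shared with it are uncertain.

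Bcl2l11 (12125) encodes BIM, a BH3-only protein that binds all the guardians, in splice isoforms of different potency that a gene-level TPM does not separate. It was at 4.97, 4.39 and 2.27 TPM in wild-type saline, 1.95, 3.62 and 2.93 in FAN1KO saline, 4.07, 5.96 and 5.76 in wild-type cisplatin and 9.21, 9.15 and 6.11 in FAN1KO cisplatin libraries. The lowest FAN1KO cisplatin library, at 6.11 TPM, was just above the highest wild-type cisplatin library, at 5.96. The log2 fold change under cisplatin was 0.54 ± 0.27 (SE, limma adjusted p = 0.165).

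Bmf (171543), a BH3-only gene whose protein binds dynein light chains, was at 3.83, 3.82 and 2.06 TPM in wild-type saline, 3.22, 6.04 and 4.01 in FAN1KO saline, 1.91, 4.94 and 5.11 in wild-type cisplatin and 10.7, 8.17 and 4.72 in FAN1KO cisplatin libraries. The FAN1KO cisplatin group held the 2 highest values of all 12, and its remaining library lay within the wild-type range. The log2 fold change was 0.85 ± 0.36 (SE, limma adjusted p = 0.110).

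Bid (12122), which caspase-8 cleaves to link death receptors to the mitochondrion, was at 69.1, 52.2 and 61.6 TPM in wild-type saline, 60.4, 38.8 and 64.2 in FAN1KO saline, 75.4, 46.7 and 55.7 in wild-type cisplatin and 43.3, 43.5 and 53.1 in FAN1KO cisplatin libraries. The groups overlapped. Bid was the only one of the 9 genes with a log2 fold change below 0 in this comparison, at -0.32 ± 0.22 (SE), which did not pass the test (limma adjusted p = 0.307).

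Apaf1 (11783), the scaffold of the apoptosome, was at 1.23, 0.904 and 0.709 TPM in wild-type saline, 0.846, 1.46 and 1.01 in FAN1KO saline, 1.44, 2.35 and 2.31 in wild-type cisplatin and 5.79, 3.38 and 2.75 in FAN1KO cisplatin libraries. The FAN1KO cisplatin libraries were the 3 highest. Its mean was 1.96-fold higher than in wild-type kidneys under cisplatin, and on the log2(TPM + 1) scale, which understates the change of so low a gene, the difference was 0.68 ± 0.24 (SE, limma adjusted p = 0.0637). limma voom on the recovered reads gave 0.94 with an adjusted p of 0.0440, and leaving out FAN1KO cisplatin library 3 gave 0.86 with 0.0381.

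Whether more of the 9 genes were called depended on the libraries with Y-linked RNA. With the mean Y-linked level as a covariate, 6 of 9 genes were called higher in FAN1KO kidneys under cisplatin (Bak1, Bik, Bmf, Mcl1, Bcl2l11 and Apaf1, limma adjusted p of 0.00756 or less), against 40.3% of all genes tested. In the 8 libraries without Y-linked RNA, a subset chosen after seeing the data, 5 of 9 were called higher (Bik, Bak1, Bcl2l11, Bmf and Mcl1), against 28.9% of all genes, and Apaf1 had an adjusted p of 0.0505. Bik and Bak1 were called in both.

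**Figure D2:**
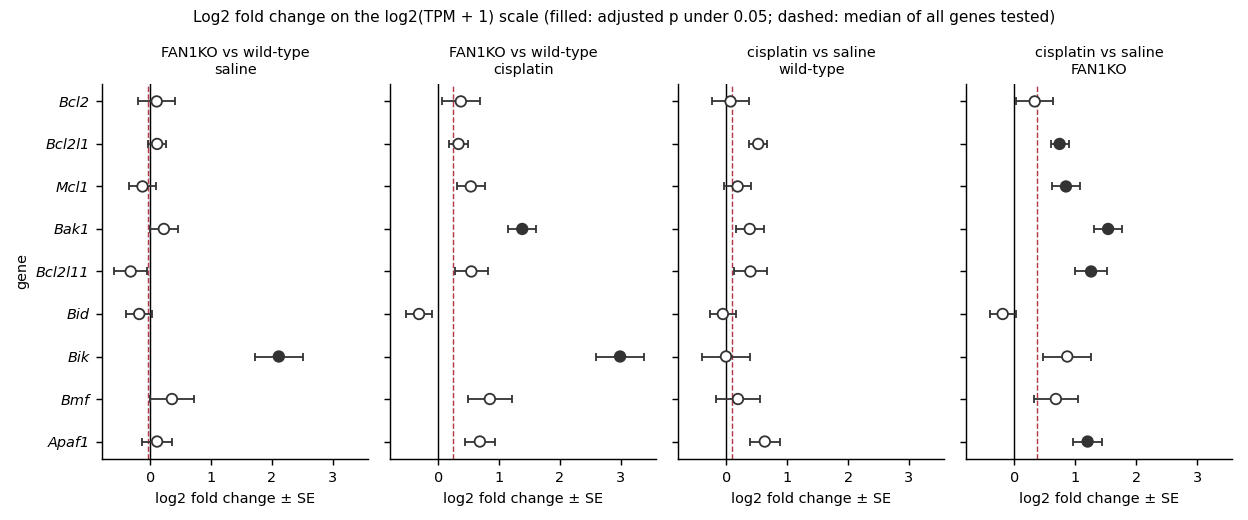
Log2 fold change on the log2(TPM + 1) scale (x axis) of each of the 9 genes (y axis) in 4 comparisons, with the limma standard error as bars. Filled points have an adjusted p under 0.05, and the dashed line is the median of all genes tested (0.24 for FAN1KO against wild-type under cisplatin, 0.37 for cisplatin against saline in FAN1KO kidneys).

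In saline-treated mice the same comparison shows the genotype difference without the drug. Bik alone of the 9 genes was called (limma), against 0.341% of all genes called higher, and it was also the only member whose libraries did not overlap, against 4.62% of all genes with all FAN1KO libraries higher. Its mean was 5.38-fold higher in FAN1KO kidneys (log2 2.11 ± 0.40 SE, limma adjusted p = 0.0427). The log2 fold change lay between 1.89 and 2.35 with each library left out in turn, but the adjusted p ran from 0.00468 to 0.140 and stayed under 0.05 only without wild-type cisplatin library 1 or 2. In the 8 libraries without Y-linked RNA the log2 fold change was smaller, 1.68, with an adjusted p of 0.00826. The adjusted p was 0.0858 when only the 6 saline libraries were fitted and 0.0548 with voom. The other 8 genes ranged from -0.32 (Bcl2l11) to 0.35 (Bmf), and the median of the 9 was 0.11 beside -0.04 for all genes tested.

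Cisplatin was next compared with saline within FAN1KO kidneys, which shares its cisplatin libraries with the comparison of genotypes above. Bak1, Bcl2l11, Apaf1, Mcl1 and Bcl2l1 rose, so that members of each role, the guardians included, were higher after the drug. limma called 5 of 9 higher and none lower, against 34.9% of all genes called higher, and 6 of 9 (these 5 and Bik) had all 3 cisplatin libraries above the saline libraries, against 47.4% of all genes. The largest of these log2 fold changes was that of Bak1, 1.54 ± 0.23 (SE, limma adjusted p = 0.000874), or 3.03-fold in the means. Bcl2l11 followed with 1.26 ± 0.27 (0.00488) and a 2.88-fold higher mean, and Apaf1 with 1.20 ± 0.24 (0.00367) and a 3.59-fold higher mean. Mcl1 rose by 0.85 ± 0.23 (0.0137) and Bcl2l1 by 0.74 ± 0.15 (0.00369).

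The remaining genes of this comparison did not pass the test. Bik went from a mean of 18.1 to 32.7 TPM (log2 0.87 ± 0.40 SE, limma adjusted p = 0.104), although fitting only these 6 libraries gave an adjusted p of 0.0279 and leaving out wild-type cisplatin library 1 gave 0.0177. Bmf differed by 0.68 ± 0.36, Bcl2 by 0.33 ± 0.31 and Bid by -0.19 ± 0.22. The median of the 9 genes was 0.85, beside 0.37 for all genes tested. Median-ratio scaling moved the median of all genes to -0.03 and the split of all calls from 5229 higher and 733 lower to 2157 higher and 2101 lower. Under it Bak1 (1.09), Apaf1 (0.88), Bcl2l11 (0.88) and Mcl1 (0.39) were still called, Bcl2l1 was not (0.28, limma adjusted p = 0.248), and Bcl2 changed sign to -0.05. Leaving out FAN1KO saline library 1 or FAN1KO cisplatin library 1 ended the call of Mcl1 (adjusted p = 0.0563 and 0.0653). In the 8 libraries without Y-linked RNA, 7 of 9 genes were called higher (all but Bcl2 and Bid), against 44.4% of all genes.

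In wild-type kidneys the same 5 weeks of cisplatin gave no member that passed the adjusted test with limma or with voom on the recovered reads, where 0.0601% of all genes were called higher by limma. By unadjusted limma p under 0.05 there were 2 of 9, against 3% of all genes, and the same 2 genes, Bcl2l1 and Apaf1, had all cisplatin libraries above the saline libraries, against 5.2% of all genes. Bcl2l1 was 1.46-fold higher (log2 0.52 ± 0.15 SE, limma adjusted p = 0.962, exact permutation p = 0.1) and Apaf1 2.14-fold higher (log2 0.63 ± 0.24, limma adjusted p = 1, exact permutation p = 0.1) in the means. Bak1 differed by 0.38 ± 0.23 and Bcl2l11 by 0.39 ± 0.27, with overlapping libraries, and Bik by -0.01 ± 0.40. The median of the 9 genes was 0.19, beside 0.08 for all genes tested.

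The difference between the 2 responses to cisplatin was tested as the genotype by cisplatin interaction. None of the 9 genes passed with limma or with voom, against 6.24% of all genes called in either direction by limma, and 2 of 9 had an unadjusted p under 0.05, against 25.1% of all genes. These were Bak1 (log2 1.16 ± 0.33 SE, limma adjusted p = 0.0611, and 0.0484 without FAN1KO cisplatin library 3) and Bcl2l11 (0.86 ± 0.38, 0.187). With the Y-linked level as a covariate, 3 of 9 were called, all with a larger response in FAN1KO kidneys, against 27.3% of all genes called in that direction: Bak1 (adjusted p = 0.00168), Bcl2l11 (0.00413) and Mcl1 (0.00811). In the 8 libraries without Y-linked RNA, 2 were called, Bak1 (0.0106) and Bcl2l11 (0.0192), against 13.4% of all genes called in that direction.

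Ratios of TPM within 1 library do not depend on how libraries are scaled to each other. They compare single members and not whole roles, and Bax, the other effector, is not among the 9 genes. Bak1 per Bcl2l1 was 0.271 to 0.319 in the 3 FAN1KO cisplatin libraries and 0.114 to 0.178 in the other 9. Bak1 per Mcl1 was likewise highest there, at 0.713 to 0.874 against 0.356 to 0.523. Bcl2l11 per Mcl1 had overlapping libraries under cisplatin, at 0.109 to 0.143 in FAN1KO and 0.108 to 0.118 in wild-type kidneys. Bik per Bcl2l1 separated the genotypes in both treatments, with 0.132 to 0.216 in FAN1KO and 0.00924 to 0.0447 in wild-type libraries. These ratios of RNA levels were not tested, and they do not measure protein.

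**Figure D3:**
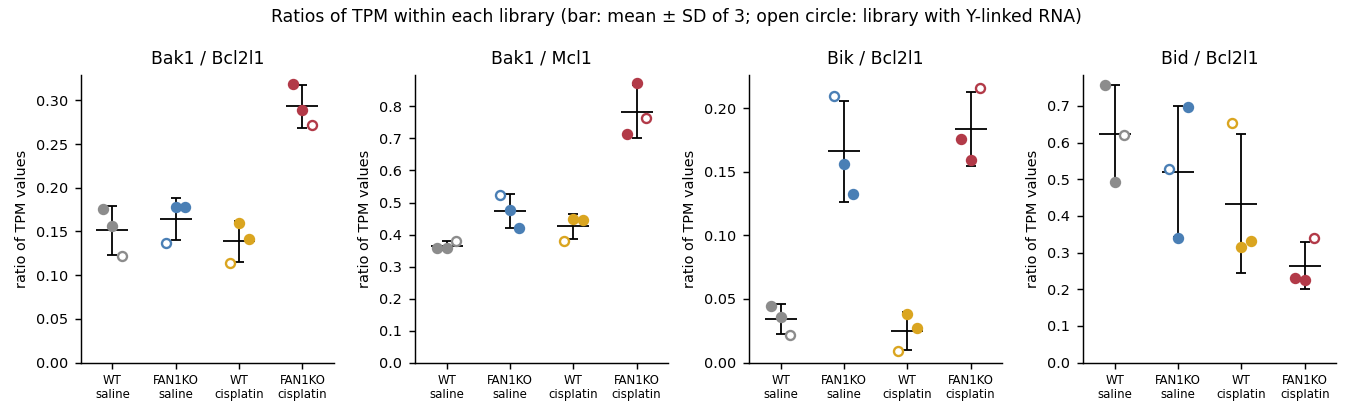
Ratio of the TPM of 2 genes within each library (y axis, from 0) by group (x axis), with the mean ± SD of 3 as bars and the libraries with Y-linked RNA as open circles. The 2 ratios with Bak1 are highest in FAN1KO cisplatin kidneys (0.271 or more and 0.713 or more), Bik per Bcl2l1 is higher in FAN1KO kidneys in both treatments, and Bid per Bcl2l1 overlaps between the genotypes.

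The makeup of the BH3-only group differed as well. The summed TPM of Bcl2l11, Bid, Bik and Bmf was 71.4 ± 9.35 in wild-type saline, 79.8 ± 12.0 in FAN1KO saline, 72.3 ± 9.64 in wild-type cisplatin and 95.3 ± 3.28 in FAN1KO cisplatin kidneys (SD, n = 3). Bid made up 81.2% ± 9.17 of this sum in wild-type and 48.9% ± 4.84 in FAN1KO kidneys after cisplatin, and Bik 5.56% ± 3.91 and 34.3% ± 0.565. The guardian sum was 195 ± 37.6 TPM in wild-type cisplatin and 253 ± 32.5 in FAN1KO cisplatin kidneys, with overlapping libraries, and Bcl2l1 took 73.9% ± 1.83 and 71.1% ± 3.24 of it. The BH3-only sum per guardian sum was 0.387 ± 0.132 and 0.381 ± 0.0600, which did not differ beyond the spread. Both sums cover only members of the 9 genes. Other genes of the family, among them Bbc3, Pmaip1 and the guardian Bcl2l2 described below, are not in them. The ratio therefore does not describe the family as a whole. The wild-type cisplatin libraries ran from 0.307 to 0.539 and the FAN1KO cisplatin libraries from 0.344 to 0.450, which overlap. Those without Y-linked RNA, a subset chosen after seeing the data, had 0.307 and 0.316 in wild-type and 0.344 and 0.349 in FAN1KO kidneys. So few libraries cannot show a difference between the genotypes.

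Genes whose log2(TPM + 1) followed the members most closely over the 12 libraries, which share groups, depth and the Y-linked split, were listed for the 3 members with the largest change under cisplatin. For Bik these were Nucb2 (Pearson r = 0.970), Klhdc4 (0.969) and Mcm6 (0.962), the last a subunit of the replicative helicase. Each of these 3 genes was called higher in FAN1KO kidneys after cisplatin and after saline, Mcm6 with mean levels of 7.07 TPM against 1.03 after saline and 16.6 against 1.49 after cisplatin. They were chosen for following Bik over these same libraries, so their calls repeat its pattern and are not separate evidence. For Bak1 they were Efna4 (0.990), B4galnt1 (0.988) and Arl4c (0.988), none of which was called in saline, where Bak1 was not called either. For Bmf they were Dennd1c (0.980), P4htm (0.977) and Emb (0.975). Between the 9 genes themselves, r over the 12 libraries was 0.943 for Bcl2l11 with Mcl1 and 0.929 for Apaf1 with Bak1, and Bid had a negative r with every other member, from -0.501 (Bcl2l11) to -0.808 (Bmf).

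The neighbours of Bik on chromosome 15 were examined, a set chosen after its values were seen. Of 10 protein-coding genes, 5 on each side, 8 could be tested. None was called between the genotypes after saline, where Bik was 5.38-fold higher, with a limma log2 fold change of 0.30 for Ttll1 on one side and -0.13 for Mcat on the other. After cisplatin 3 of 8 were called higher in FAN1KO kidneys, against 19.6% of all genes: Ttll1 (0.72, limma adjusted p = 0.0122), Tspo (0.79, 0.00253), which encodes a protein of the outer mitochondrial membrane, and Ttll12 (1.04, 0.00152). A4galt (0.82, adjusted p = 0.191), Arfgap3 (0.24), Pacsin2 (0.17), Mcat (0.01) and Mpped1 (-0.32) were not called.

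**Figure D4:**
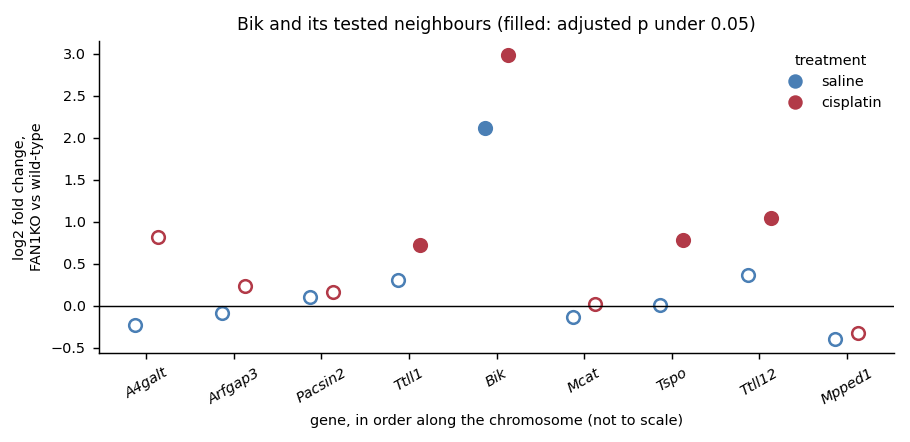
Log2 fold change of FAN1KO against wild-type kidneys (y axis) after saline and after cisplatin for Bik and its 8 tested neighbours, in order along chromosome 15 and not to scale (x axis). Filled points have a limma adjusted p under 0.05. Bik is filled in both treatments (2.11 and 2.99), and Ttll1, Tspo and Ttll12 in cisplatin only, a difference between treatments that was called for Tspo (interaction adjusted p = 0.0332) and not for Ttll1 (0.297) or Ttll12 (0.0824).

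The rest of the apoptosis pathway was described by 5 lists with 73 distinct genes, of which 67 were tested. Between the genotypes under cisplatin limma called 20 of them higher, against 19.6% of all genes, and 1 lower, and with median-ratio scaling 14 higher and 5 lower. After saline it called 0 of 67 and so did voom, with 0 to 2 genes of each list at an unadjusted limma p under 0.05. Cisplatin against saline gave 37 higher, against 34.9% of all genes, and 3 lower in FAN1KO kidneys, and 21 higher and 9 lower with median-ratio scaling. In wild-type kidneys it gave 2 higher, against 0.0601% of all genes. The counts of each list between the genotypes under cisplatin, given next, stand beside the same 19.6%.

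Among 16 other BCL2 family genes tested, 6 rose when the genotypes were compared under cisplatin, and their median was 0.43. Pmaip1, which encodes the MCL1 antagonist NOXA, went from a mean of 7.86 to 37.0 TPM (log2 2.12, limma adjusted p = 0.00544), and Bbc3, which encodes PUMA, from 10.9 to 45.7 TPM (2.00, 0.000470). Bax, the partner effector of Bak1, went from 195 ± 45.3 to 410 ± 55.1 TPM (1.09 ± 0.19 SE, 0.00335), a higher level than Bak1 in each group mean. Bcl2l14 (0.93) and Bcl2l12 (0.77) also rose. The guardian Bcl2l2, named after its values were seen, had means of 36.2 ± 3.19 and 33.2 ± 2.79 TPM and a log2 fold change of -0.12 ± 0.12 (adjusted p = 0.488). Bcl2a1a, Bcl2a1b and Bcl2a1d are near-identical copies whose values are uncertain.

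The list of p53 targets of apoptosis shares Bax, Bbc3 and Pmaip1 with that family list. Of its 12 genes, 8 rose between the genotypes under cisplatin, with a median of 0.83, among them Phlda3, an inhibitor of AKT (1.72, limma adjusted p = 0.00982), and Trp53inp1 (1.16, 0.00355). All 12 rose with cisplatin in FAN1KO kidneys, against 34.9% of all genes called higher there. In wild-type kidneys 2 of the 12 rose, Aen and Phlda3 (limma adjusted p = 0.0222 each), against 0.0601% of all genes. These were the 2 calls among the 67 genes, and that count was 0 with the replicate block, with only the 6 libraries compared, without any 1 of the wild-type saline libraries, without wild-type cisplatin library 2 or 3 and without FAN1KO cisplatin library 2. It was 1 without FAN1KO cisplatin library 1, 4 without FAN1KO cisplatin library 3, 5 without wild-type cisplatin library 1, 6 with the Y-linked covariate and 7 in the 8 libraries without Y-linked RNA.

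Downstream genes and regulators were counted in the same way. Of 16 caspases and mitochondrial release factors, Casp8, the caspase that cleaves BID, rose (0.36, limma adjusted p = 0.0336) and Aifm1, which encodes apoptosis-inducing factor, fell by 0.39 on the log2 scale (0.00927), and the list median of 0.19 was below the 0.24 of all genes. Casp9, the partner of APAF1 and also named after its values were seen, had means of 12.5 and 13.6 TPM (0.11, 0.570). Of 7 inhibitors of apoptosis, Birc3 (1.47), Birc5 (1.11) and Birc2 (0.70) rose. Of 19 regulators and partners, 5 rose: Ddit3, which encodes CHOP, a factor known to raise Bcl2l11 (1.25, 0.00937), Trib1 (0.96), Fbxw7, a ubiquitin ligase of MCL1 (0.92, 0.0189), Dynll1, a dynein light chain that binds BIM (0.49, 0.0187), and Usp9x, a deubiquitinase of MCL1 (0.38, 0.0373).

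**Figure D5:**
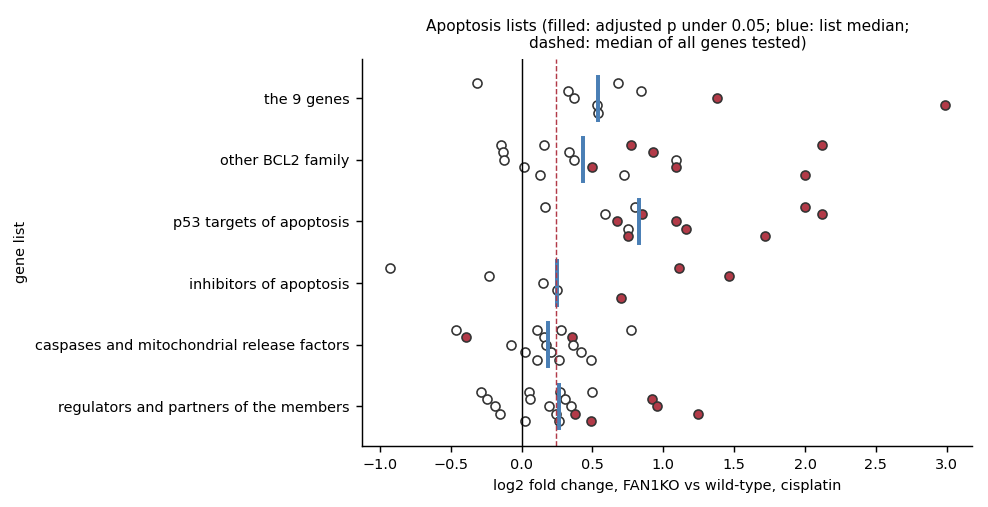
Log2 fold change of FAN1KO against wild-type kidneys under cisplatin (x axis) for the 9 genes and 5 lists of other apoptosis genes (y axis), 1 point a gene. Filled points have a limma adjusted p under 0.05, blue bars are list medians (0.54 for the 9 genes, 0.83 for p53 targets of apoptosis) and the dashed line is the median of all genes tested (0.24).

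Markers of several cell types differed in the comparison of genotypes under cisplatin. Their calls stand beside 19.6% of all genes called higher and 654 of 14972 called lower. The summed TPM of 8 proximal tubule markers was 3827 to 6476 in wild-type and 1584 to 3312 in FAN1KO cisplatin libraries, with 4 of 8 called lower (Slc34a1, Lrp2, Cubn and Slc22a6) and none at 0, so the labelled tissue expressed its defining genes in every group. All 6 injured tubule markers rose, and their sum was 416 to 2220 against 7658 to 12152 TPM. The 6 macrophage markers summed to 45.3 to 130 against 155 to 351 TPM, with Cd14 and Cd68 called higher. The 8 lymphocyte markers summed to 2.63 to 11.0 against 5.54 to 14.8 TPM, with 1 of the 6 tested called higher (Cd8a). The 4 erythroid markers in the table summed to 2318 to 6571 against 6.56 to 73.3 TPM, with all 4 called lower. Collecting duct markers summed to 324 to 713 against 946 to 1487 TPM, with 1 of 5 called higher (Aqp2), and those of the thick ascending limb and distal tubule to 1687 to 3588 against 1769 to 2569 TPM, with 2 of 5 called lower (Pvalb and Calb1). Endothelial markers summed to 38.3 to 163 against 20.6 to 70.9 TPM, with none of 5 called by limma, 0 at an unadjusted p under 0.05 and a median of -0.97 on the log2 scale. None of 4 podocyte, 5 fibroblast and 4 general leukocyte markers was called by limma, and 0 of them had an unadjusted p under 0.05. The part of these shifts in the levels of the 9 genes was not tested.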

How the data were processed

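Each library's group and replicate number were read from its label. Values were deposited as TPM in 1 table of 27179 genes by NCBI Gene number, and all 12 columns were used (columns left out, 0). The submitters' processing notes name mm10 and limma; the aligner, counting program and annotation are not given in the sources used here. Gene names and positions came from RefSeq genes of GRCm38.p6, which names 25275 of the identifiers.

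TPM in a library move in steps of whole reads per gene length. Whole reads were recovered for all 22557 genes above 0 (tolerance 0.005 reads), against 0 of 500 genes given randomly shifted values, and served for depth and 1 alternative. They count assigned reads, so they do not cover other sources of error.

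A gene was tested if 3 or more libraries reached a TPM of 1 (14972 genes). On log2(TPM + 1) of all 12 libraries, limma 3.58.1 (R 4.3.3) estimated the mean of each of the 4 groups, with empirical Bayes moderation, a mean-variance trend and Benjamini-Hochberg adjustment over all genes tested at a threshold of 0.05. The script was tested on simulated data. Single genes were also compared by exact two-sided permutation of 3 against 3 libraries, which cannot go below p = 0.1. The labels do not say how libraries of 1 group were related, and p-values measure the spread between them only.

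Alternatives were a pseudocount of 0.1, no filter, median-ratio scaling, removal of 15 mitochondrially encoded genes, no trend, a replicate block, a Y-linked covariate, voom on the recovered reads, only the 6 libraries compared, an adjusted threshold of 0.1, each library left out, and, chosen after seeing the data, only the 8 libraries without Y-linked RNA.

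The 9 genes and the lists were chosen with earlier results of these data known. All 9 were named. From each list, up to 5 genes with the largest log2 fold change among those called between genotypes under cisplatin were named. For the 3 members with the largest change there, the 3 genes with the highest Pearson correlation over 12 libraries were named. Exceptions are marked in the text.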

Additional observations from a re-analysis of the deposited data

Results flagged for a closer look

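Of the 67 other apoptosis genes tested, limma called 3 for the genotype by cisplatin interaction, against 6.24% of all genes in either direction. None of the 9 BCL2 family and apoptosome genes was called. The p53 target Bbc3 (PUMA) had an interaction of 2.36 on the log2 scale (limma adjusted p = 0.00597), with means of 4.25 and 10.9 TPM in wild-type and 3.03 and 45.7 TPM in FAN1KO kidneys after saline and cisplatin. Perp, a desmosomal p53 target, had an interaction of 0.67 (0.0157), with 63.1 and 69.5 TPM in wild-type and 63.3 and 112 TPM in FAN1KO kidneys. Zmat3, a p53 target that encodes an RNA-binding protein, had an interaction of 0.86 (0.0491), with 5.34 and 12.4 TPM in wild-type and 5.30 and 23.2 TPM in FAN1KO kidneys. This count of 3 was 2 with a pseudocount of 0.1, without the filter, without the mean-variance trend and with the replicate block, 3 with voom, and 1 higher and 1 lower with median-ratio scaling. With the Y-linked covariate it was 24 higher, against 27.3% of all genes, and 2 lower. In the 8 libraries without Y-linked RNA it was 16 higher, against 13.4% of all genes, and 2 lower. With each library left out it ran from 1 (without FAN1KO cisplatin library 1) to 6 (without FAN1KO cisplatin library 3), and it was 5 without library 3 of the wild-type saline or the wild-type cisplatin group.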

How the results depend on the processing

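Of 1026 values of the 9 genes under alternatives, 963 kept their direction and their side of the threshold, 18 lost and 22 gained a call, and 23 changed sign, all of them in values that were not called. Between genotypes under cisplatin, 2 members were called, 6 with the Y-linked covariate, 5 in the 8 libraries without Y-linked RNA, and 2 to 3 with each library left out. For the other apoptosis genes that count went from 21 to 37 with the covariate and 10 to 23 with each library left out (11 without wild-type cisplatin library 1, 10 without FAN1KO cisplatin library 1 and 12 without FAN1KO cisplatin library 2). After saline the 1 call, Bik, became 0 with a pseudocount of 0.1, no filter, voom or only the 6 libraries compared, and 0 to 1 with each library left out. For the interaction the count of 0 became 3 with the covariate, 2 in the 8 libraries, 1 at an adjusted threshold of 0.1, and 0 to 1 with each library left out. The cause of these shifts was not tested.

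Signs changed as follows on the log2 scale. With median-ratio scaling, Bcl2 went to -0.047 (cisplatin in FAN1KO), -0.012 (cisplatin in wild-type) and -0.035 (interaction), and Bcl2l1 to -0.14 (interaction). In the 8 libraries, Bcl2 went to -0.00102 and Bik to 0.30 (cisplatin in wild-type), and Bid to 0.033 (interaction). With the covariate, Bik went to 0.0030 (cisplatin in wild-type). With each library left out, FAN1KO against wild-type after saline ranged from -0.16 to 0.39 for Bcl2, -0.30 to 0.017 for Mcl1, -0.32 to 0.040 for Bid and -0.0074 to 0.21 for Apaf1. Cisplatin in wild-type ranged from -0.19 to 0.26 for Bcl2, -0.24 to 0.097 for Bid, -0.33 to 0.51 for Bik and -0.029 to 0.54 for Bmf, and the interaction from -0.017 to 0.53 for Bcl2 and -0.36 to 0.050 for Bid.

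The labels do not say whether same-numbered libraries of different groups are related. Such libraries had a mean correlation of deviations of 0.018 (18 pairs, -0.61 to 0.76), and others 0.015 (36 pairs). The libraries with Y-linked RNA do not carry the same number in all groups, so these values cannot show whether the numbers mark a relation. The replicate block ended the saline call of Bik (0 members called, adjusted p = 0.0900) and changed no other call of the 9 genes.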
